A study of Mus musculus with 19 samples.

Results

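The 10 genes described here carry the Notch signal in the mouse colon or read it out in the choice between absorptive and secretory cells. They are the receptors Notch1, Notch2 and Notch3, the ligands Dll1, Dll4, Jag1 and Jag2, the target Hes1, and the secretory factors Atoh1 and Gfi1. The members were taken by symbol from a table of 32694 genes, in which all 10 are listed. Each of the 10 also passed the filter on low values, which left 18445 genes for testing.

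Poly-A RNA from 19 samples of 12-week-old mice was sequenced, 1 library per sample. Wild-type colon came from 3 females and 2 males. Apc tumours are colon tumours from 3 female and 4 male mice in which Villin-Cre had removed 1 allele of Apc, a brake on Wnt signalling. Apc/Tgif tumours are colon tumours from a further 3 females and 4 males that lacked the same Apc allele and, through the same Cre, both alleles of Tgif1 and of Tgif2, which encode homeodomain repressors. Villin-Cre acts in the intestinal epithelium, so the stroma, vessels and immune cells of every sample kept these genes. Tumours were single tumours, and wild-type samples were pieces of colon with their muscle and nerves.

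In Notch signalling, a ligand on 1 cell binds a receptor on its neighbour. Adam10 and then gamma-secretase cut the receptor, and the freed intracellular part joins Rbpj in the nucleus to switch on targets such as Hes1. In the intestinal crypt Hes1 represses Atoh1, the factor that commits a progenitor to the secretory lineages. Cells with Atoh1 display Dll1 and Dll4 and go on to become goblet, enteroendocrine, tuft or, in the small intestine, Paneth cells, with Gfi1 and Spdef acting downstream. Neighbours in which Notch is active become absorptive colonocytes.

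Promoter windows, the 250 bases before the transcript start in RefSeq on GRCm38.p6, were found for 9 of the 10 members. The member without a window was Hes1, so its promoter was not searched. Shown here are 3, those of Atoh1, Dll1 and Hey2. Atoh1 had the lowest log2 fold change of the members in Apc/Tgif tumours relative to wild-type colon. The Dll1 window holds an E box. Hey2 is a Notch target outside the 10 whose window holds an Rbpj motif. Each window is written 5′ to 3′ on the strand of its gene, and capitals mark a motif match. Atoh1 lies on the plus strand at chr6:64728875-64729124, Dll1 on the minus strand at chr17:15376933-15377182, and Hey2 on the minus strand at chr10:30842784-30843033.
Atoh1: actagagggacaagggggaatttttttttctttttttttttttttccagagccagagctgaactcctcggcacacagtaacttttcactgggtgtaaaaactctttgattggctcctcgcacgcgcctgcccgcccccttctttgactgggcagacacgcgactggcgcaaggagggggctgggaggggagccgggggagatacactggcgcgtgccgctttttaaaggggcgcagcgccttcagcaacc
Dll1: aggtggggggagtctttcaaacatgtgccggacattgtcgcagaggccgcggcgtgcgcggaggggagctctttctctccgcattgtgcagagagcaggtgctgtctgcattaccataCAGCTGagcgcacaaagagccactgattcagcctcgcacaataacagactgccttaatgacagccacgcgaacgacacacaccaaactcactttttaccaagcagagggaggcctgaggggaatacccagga
Hey2: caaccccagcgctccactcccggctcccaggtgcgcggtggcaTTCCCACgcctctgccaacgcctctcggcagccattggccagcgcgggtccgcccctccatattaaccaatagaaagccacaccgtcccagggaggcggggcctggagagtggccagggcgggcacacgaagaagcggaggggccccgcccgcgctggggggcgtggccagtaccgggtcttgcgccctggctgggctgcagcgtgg
Both strands were searched for GTGGGAA, the motif of Rbpj, for CACNAG, the N box bound by Hes repressors, and for CAGCTG, an E box of the kind that basic helix-loop-helix activators bind, which reads the same on both strands. The Rbpj motif was found in 0 of the 9 members with a window, which leave out the Notch target Hes1, and in 5.42% of all 32817 windows of this length. An N box was found in 4 members (Notch1, Notch2, Notch3 and Dll4) and in 36.7% of all windows. An E box was found in 2 members, Dll1 at 132 bases and Jag1 at 82 bases before the start, and in 13.0% of all windows. The Atoh1 window matched none of the 3 motifs, and the Hey2 match lay 207 bases before the start. Nrarp, another Notch target outside the 10, had 0 Rbpj motifs and 2 N boxes in its window. These matches describe the letters in a short window and say nothing of binding.

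Library totals lay between 34417808 and 44732717 normalized counts, assumed to be the authors' read counts scaled by size factors. Tgif1 was between 251 and 654 in Apc/Tgif tumours and between 2785 and 4965 in Apc tumours. Tgif2 was higher in Apc/Tgif tumours, at 2141 to 3107, than in Apc tumours, at 476 to 764, so a whole-gene total of Tgif2 does not check that label. Replicate 2 of the Apc/Tgif tumours had the lowest mean correlation with its own group, 0.947, and in replicate 5 the ribosomal RNA gene Rn45s took 9.35% of all counts. Epithelial markers summed to 462906 to 581123 in wild-type colon, 296309 to 538404 in the Apc tumours and 347054 to 440434 in Apc/Tgif tumours. Of the 9 markers, 5 were lower and 1 higher in Apc tumours than in wild-type colon. In Apc/Tgif tumours 4 were lower and 1 higher. Mean Krt8 was 185914, 135244 and 116666 in the 3 groups, Epcam 65964, 66661 and 66935, and Krt18 13290.5, 29342 and 33486. Relative to wild-type colon, all 8 smooth muscle, 7 B cell and 7 enteric neuron and glia markers tested were lower in both tumour genotypes, and all 7 neutrophil markers were higher. The part of these differences in what follows was not tested. Between the tumours 2 of 10 endothelial, 2 of 6 pericyte, 2 of 6 fibroblast and 1 of 7 neutrophil markers were lower in Apc/Tgif tumours. The share of all tested genes lower there was 8.76%. At an unadjusted limma p under 0.05, the numbers lower in these lists were 3, 3, 4 and 6. The median log2 fold change of the neutrophil markers was -0.98. Genes of the distal colon summed to 1837 to 23442 in Apc and 8022 to 24751 in Apc/Tgif tumours. With that list's score as a covariate every member kept its direction and its call in the 3 comparisons. The list is of Hox genes, of which Hoxd13 ran from 2.42 to 10231 in Apc tumours. The part of colon position in the member values was not tested. In whole tissue, fewer cells of a type and less RNA per cell cannot be told apart.

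In Apc tumours Notch1, Notch2, Dll4 and Jag2 rose above wild-type colon, and Dll1 and Atoh1 fell. That is 4 of 10 higher against 23.9% of all tested genes, and 2 of 10 lower against 25.2%, at an adjusted p under 0.05 in a limma fit of all 19 libraries with sex as a covariate. In Apc/Tgif tumours the same 4 genes and Hes1 rose over wild-type colon, 5 of 10 against 24.8% of all genes. Dll1, Atoh1 and Gfi1 fell, 3 of 10 against 25.5%. Between the tumours, Notch2, Dll4 and Hes1 were higher in Apc/Tgif tumours, 3 of 10 against 7.88%. Jag1, Atoh1 and Gfi1 were lower there, 3 of 10 against 8.76%. The median log2 fold change of the members was 0.20, 0.31 and 0.37 in these 3 comparisons, beside -0.012, 0.0016 and -0.014 for all tested genes. The comparisons share libraries, so their values are set side by side and not correlated.

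**Figure D1:**
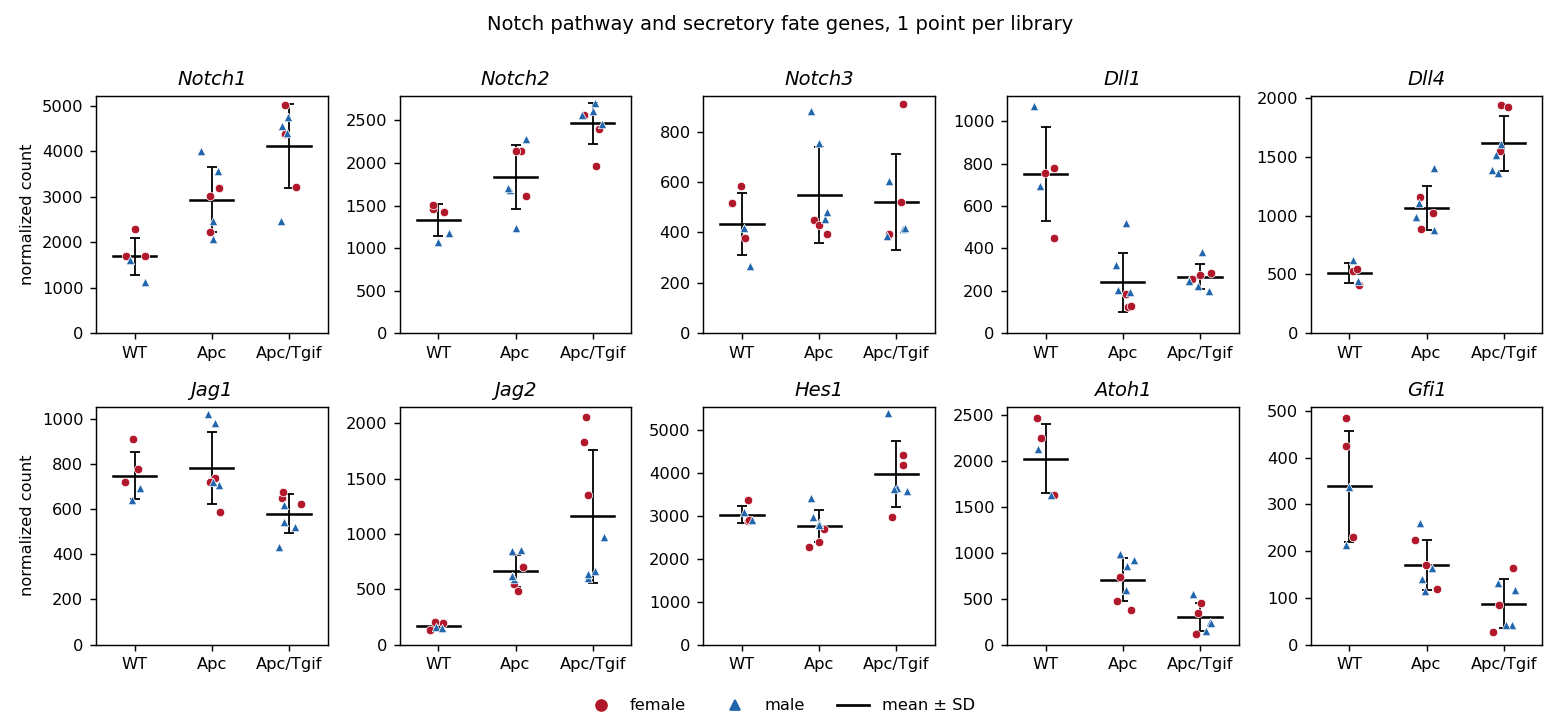
Normalized counts (linear y axis) of the 10 genes in wild-type colon (WT), Apc and Apc/Tgif tumours, 1 point per library, with the mean and SD of each group. Dll4 and Jag2 sit higher in every tumour than in any wild-type library, and Atoh1 sits lower.

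Among the receptors, Notch1 and Notch2 rose in tumours and Notch3 did not pass the test in any comparison. Notch1 (chr2:26457903-26516663, minus strand), a main receptor of the crypt epithelium, ran from 1133 to 2299 normalized counts in the 5 wild-type libraries, with a median of 1689. The 7 Apc tumours ran from 2074 to 4002 with a median of 3007, and the 7 Apc/Tgif tumours from 2478 to 5009 with a median of 4409. Every Apc/Tgif tumour was above every wild-type library, while the lowest 2 Apc tumours lay within the wild-type range. The means were 1689 ± 414, 2936 ± 714 and 4113 ± 917 (SD over 5, 7 and 7 libraries, as for every mean that follows). The log2 fold change over wild-type colon was 0.82 (SE 0.203, limma adjusted p = 0.00249) in Apc tumours and 1.30 (adjusted p = 2.39e-05) in Apc/Tgif tumours. Between the tumours it was 0.49 (SE 0.183, adjusted p = 0.0772), which missed the threshold. It passed when Apc tumour replicate 5 (adjusted p = 0.0359) or Apc/Tgif tumour replicate 2 (0.0473) or 5 (0.0210) was left out.

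Notch2 (chr3:98013527-98150361, plus strand), a receptor that acts beside Notch1 in crypt cells, was 1328 ± 190.5 in wild-type colon, 1831 ± 374 in the Apc tumours and 2467 ± 242 in Apc/Tgif tumours. Its lowest, median and highest values were 1073, 1428 and 1506 in wild-type colon, 1235, 1703 and 2286 in Apc tumours, and 1966, 2564 and 2705 in Apc/Tgif tumours. The Apc/Tgif tumours stood clear of wild-type colon and overlapped the Apc tumours. Notch2 rose by 0.47 on the log2 scale in Apc tumours (limma adjusted p = 0.00956) and by 0.92 in Apc/Tgif tumours (adjusted p = 1.91e-05) over wild-type colon, and by 0.45 between the tumours (SE 0.126, adjusted p = 0.0185). The last call was lost with equal library totals (0.40, adjusted p = 0.0711) and in females alone (0.23, adjusted p = 0.280), and the first with an epithelial score as a covariate (0.28, adjusted p = 0.0889).

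Notch3 (chr17:32120820-32166852, minus strand), known as the receptor of vascular mural cells, was 433 ± 123, 548 ± 189.6 and 521 ± 189.5 in wild-type colon, Apc and Apc/Tgif tumours. Its adjusted p values in limma lay between 0.288 and 0.871. Notch3 varied from tumour to tumour with vessel genes. The 5 genes most like it over the 14 tumours, with group means removed, were the endothelial genes Mmrn2 (r = 0.934), Fgd5 (r = 0.923), Erg (r = 0.921), Tie1 (r = 0.920) and Pecam1 (r = 0.915). Its r with the mean of 10 endothelial markers was 0.938, and with 6 pericyte markers 0.844. Notch1 and Notch2 had r of -0.383 and -0.0917 with the endothelial list. The 14 points share library effects, and these values are a description.

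The Delta ligands moved in opposite directions. Dll1 (chr17:15367354-15376872, minus strand), which marks early secretory progenitors, was 781, 448, 757, 695 and 1072 in the 5 wild-type libraries. Apc tumours ran from 126 to 521 with a median of 194, and Apc/Tgif tumours from 200.2 to 385 with a median of 255. One Apc tumour, at 521, reached into the wild-type range, and no Apc/Tgif tumour did. Dll1 was 3.56-fold lower in Apc tumours (log2 fold change -1.83, SE 0.275, limma adjusted p = 1.98e-05) and 2.90-fold lower in Apc/Tgif tumours (adjusted p = 0.000112). Between the tumours the log2 fold change of 0.30 (SE 0.248, adjusted p = 0.474) missed the threshold. In females alone it was 0.91 and passed (adjusted p = 0.0313), and in males alone it was -0.16 (adjusted p = 0.772), while the test of the difference between the sexes gave an adjusted p of 0.0964.

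Dll4 (chr2:119325784-119335962, plus strand), a ligand of both secretory progenitors and sprouting vessels, was 529, 414, 551, 448 and 624 in wild-type colon. Apc tumours ran from 881 to 1408 with a median of 1022, and Apc/Tgif tumours from 1362 to 1945 with a median of 1551. Wild-type colon stood apart from both tumour genotypes, and of the Apc tumours only the highest overlapped the Apc/Tgif range. Dll4 was 2.08-fold higher in Apc tumours (log2 fold change 1.06, SE 0.140, limma adjusted p = 4.79e-06) and 3.17-fold higher in Apc/Tgif tumours (adjusted p = 1.24e-08). Between the tumours it was 1.52-fold higher (log2 fold change 0.60, SE 0.127, adjusted p = 0.00284), and in males alone the difference was 0.44 (adjusted p = 0.0886). The 10 endothelial markers summed to 4516 to 5570 in wild-type colon, 6188 to 10863 in the Apc tumours and 4274 to 10757 in Apc/Tgif tumours. With that list's score as a covariate the log2 fold changes were 1.04, 1.66 and 0.62, and each passed the test. The list holds endothelial markers in general, and the part of sprouting vessels in the Dll4 values was not tested. Per 100 counts of Dll4 there were 108 to 172 counts of Dll1 in wild-type colon, 11.1 to 37.0 in the Apc tumours and 13.2 to 27.7 in Apc/Tgif tumours.

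Of the Jagged ligands, Jag2 rose in tumours and Jag1 did not. Jag2 (chr12:112907819-112929776, minus strand), a ligand of the Jagged class, was 192, 129, 201, 161 and 152 in wild-type colon. Apc tumours ran from 480.35 to 859 with a median of 623, and Apc/Tgif tumours from 603 to 2055 with a median of 970.2. Both tumour genotypes lay clear of wild-type colon. Jag2 was 4.11-fold higher in Apc tumours (log2 fold change 2.04, SE 0.267, limma adjusted p = 4.06e-06) and 6.54-fold higher in Apc/Tgif tumours (adjusted p = 8.75e-08). The difference between the tumours, 0.67 on the log2 scale (SE 0.241, adjusted p = 0.0649), missed the threshold over both sexes together. It passed when Apc tumour replicate 4 (adjusted p = 0.0402) or 5 (0.0435), or Apc/Tgif tumour replicate 4 (0.0382) or 5 (0.0378), was left out. It also passed in the fit with 1 mean per group and sex (0.78, adjusted p = 0.00162) and with the endothelial score as a covariate (0.81, adjusted p = 0.0398).

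Within the Apc/Tgif tumours the values of Jag2 separated by sex. The 3 females were at 1352, 1834 and 2055 and the 4 males at 603, 636, 666 and 970.2, so the sexes did not overlap. In Apc tumours the 3 females were at 480.35, 545 and 704 and the 4 males at 591, 623, 843 and 859, which overlap. The mean log2 difference between Apc/Tgif and Apc tumours was 1.59 in females and -0.03 in males. The test of that difference between the sexes gave -1.62 (SE 0.311, limma adjusted p = 0.00225). Jag2 was the 1 member called in this test, where 23.6% of all tested genes were called. With quality weights per library more members were called, so the number called depends on the variance setting. The other 9 members had adjusted p values from 0.0559 for Jag1 to 0.985 for Gfi1. Summed neutrophil markers ran from 3494 to 16942 in the 3 female and from 3200 to 8263 in the 4 male Apc/Tgif tumours, and their part in the sex difference was not tested.

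**Figure D2:**
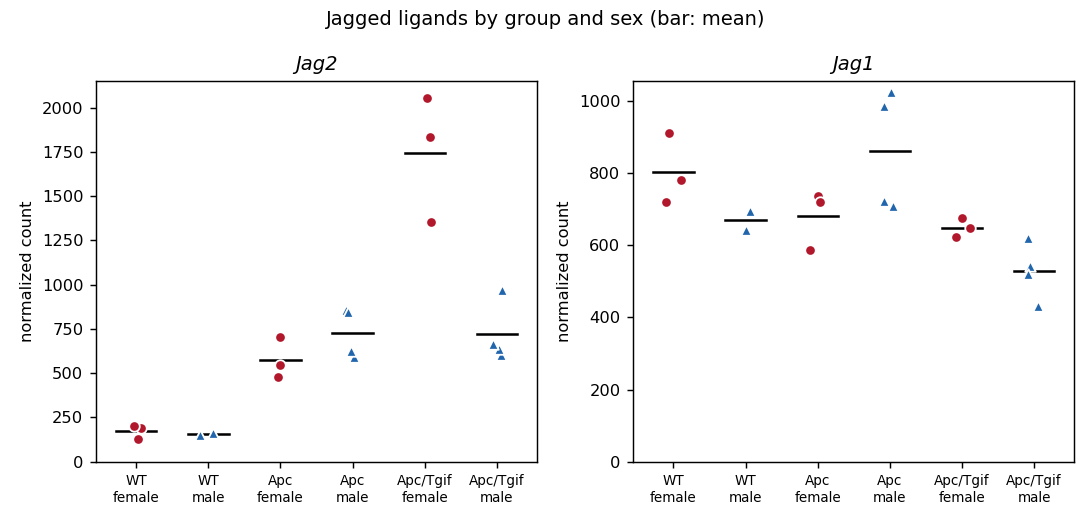
Normalized counts (linear y axes) of Jag2 and Jag1 by group and sex, 1 point per library, with bars at the mean. The 3 female Apc/Tgif tumours, at 1352 to 2055, lie above every other library for Jag2.

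Jag1 (chr2:137081456-137116644, minus strand), the other Jagged ligand, was 749.8 ± 103 in wild-type colon, 784 ± 159.7 in the Apc tumours and 580.2 ± 85.8 in Apc/Tgif tumours. Its lowest, median and highest values were 642, 720.45 and 911, then 587, 723 and 1025, then 432, 619 and 676, and the 3 groups overlapped. Jag1 fell by 0.42 on the log2 scale from Apc to Apc/Tgif tumours (SE 0.137, limma adjusted p = 0.0396). That call was lost in 12 of 35 alternative settings, with adjusted p of 0.0533 to 0.0824 when Apc tumour replicate 1, 4, 6 or 7 or Apc/Tgif tumour replicate 5, 6 or 7 was left out. In females alone the difference was -0.06. The difference of Jag1 from wild-type colon, -0.36 in Apc/Tgif tumours (adjusted p = 0.0526), missed the threshold and passed it in 11 settings, among them without wild-type replicate 4, Apc tumour replicate 3, 4 or 6, or Apc/Tgif tumour replicate 3 (0.0430 to 0.0485). Counts of Jag2 per 100 of Jag1 ran from 17.9 to 25.8 in wild-type colon, 57.6 to 119.9 in the Apc tumours and 97.4 to 330 in Apc/Tgif tumours.

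**Figure D3:**
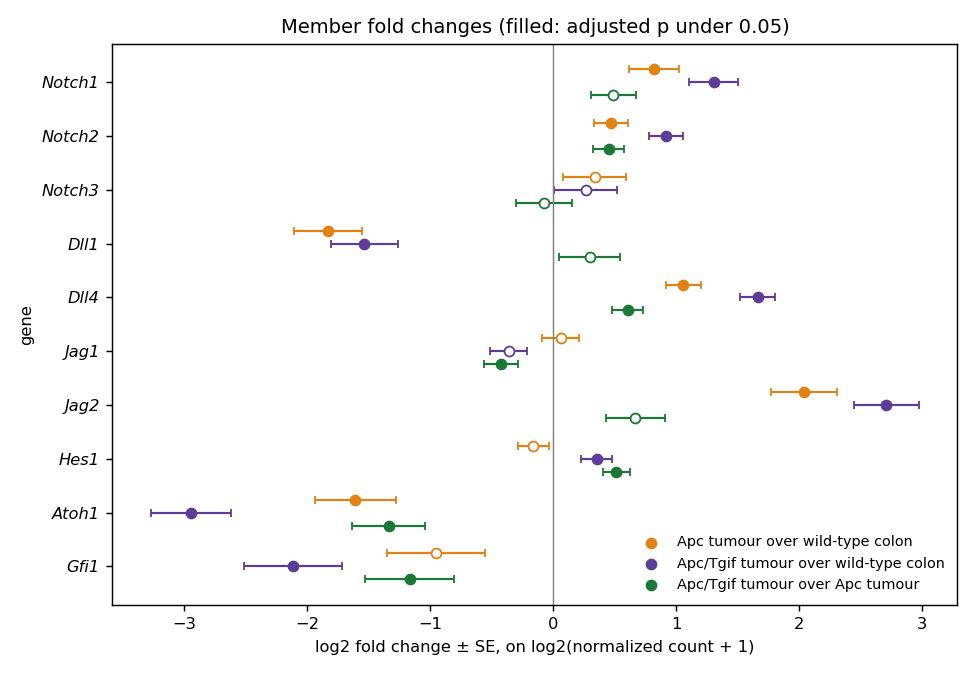
Log2 fold changes on log2(normalized count + 1) with their SE for the 10 genes in the 3 comparisons. Filled points passed an adjusted p of 0.05 and open points did not, and Atoh1 in Apc/Tgif tumours relative to wild-type colon, at -2.95, is farthest to the left.

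Between the tumours Hes1 rose and Atoh1 fell. Hes1 (chr16:30064384-30067796, plus strand), the repressor that Notch switches on, was 2881, 2892, 3350, 3091 and 2887 in wild-type colon. Apc tumours ran from 2274 to 3397 with a median of 2779, and Apc/Tgif tumours from 2976 to 5374 with a median of 3638. Hes1 did not pass the test in Apc tumours over wild-type colon (log2 fold change -0.16, SE 0.124, limma adjusted p = 0.293). It was 1.43-fold higher in Apc/Tgif than in Apc tumours (log2 fold change 0.51, SE 0.112, adjusted p = 0.00372), and all 3 groups overlapped. In males alone that difference was 0.42 (adjusted p = 0.0677). Over wild-type colon Hes1 was 1.28-fold higher in Apc/Tgif tumours (log2 fold change 0.35, adjusted p = 0.0236). This call was lost in 6 settings, among them without wild-type replicate 4 or 5 or Apc/Tgif tumour replicate 1 or 3 (adjusted p 0.0521 to 0.0748). The highest value, 5374, was that of Apc/Tgif tumour replicate 5, the library rich in Rn45s, and without it the difference between the tumours was 0.44 (adjusted p = 0.00606).

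Atoh1 (chr6:64729125-64731245, plus strand), the factor that commits cells to the secretory lineages, was 2256, 1633, 2473, 1634 and 2126 in wild-type colon. Apc tumours ran from 376 to 985 with a median of 740.3, and Apc/Tgif tumours from 119.5 to 551 with a median of 250.25. Every tumour was below every wild-type library, and the tumour genotypes overlapped. Atoh1 was 3.05-fold lower in Apc tumours (log2 fold change -1.61, SE 0.328, limma adjusted p = 0.00047) and 7.71-fold lower in Apc/Tgif tumours (log2 fold change -2.95, adjusted p = 4.22e-07) than in wild-type colon. Between the tumours it was 2.53-fold lower in Apc/Tgif tumours (log2 fold change -1.34, SE 0.296, adjusted p = 0.00418). The direction held in both sexes, at -0.94 in females, where the call was lost (adjusted p = 0.151), and -1.63 in males. With the epithelial score as a covariate the 3 log2 fold changes were -1.36, -2.72 and -1.37, and each passed.

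Gfi1 (chr5:107716657-107726036, minus strand), a repressor downstream of Atoh1 in secretory progenitors, was 424, 231, 486, 214 and 337 in wild-type colon. Apc tumours ran from 115 to 261 with a median of 164, and Apc/Tgif tumours from 26.9 to 164 with a median of 84.9. The Apc/Tgif tumours lay clear of wild-type colon, and the Apc tumours overlapped both other groups. Gfi1 was 4.34-fold lower in Apc/Tgif tumours than in wild-type colon (log2 fold change -2.12, SE 0.399, limma adjusted p = 0.000194). In Apc tumours the log2 fold change of -0.95 (adjusted p = 0.0556) missed the threshold. It passed in 10 of 35 settings, among them without wild-type replicate 2 or 4, Apc tumour replicate 7, or Apc/Tgif tumour replicate 1 or 2 (0.0295 to 0.0483). Between the tumours Gfi1 was 2.25-fold lower in Apc/Tgif tumours (log2 fold change -1.17, adjusted p = 0.0320). That call was lost in 10 settings, among them without Apc tumour replicate 1, 5 or 7 or Apc/Tgif tumour replicate 2, 6 or 7 (0.0512 to 0.0722). It was also lost in females alone (limma adjusted p = 0.162) and in males alone (0.0865). Quantile normalization (0.0581) and a fit of the 2 tumour groups only (0.0612) lost it as well. The log2 fold change stayed between -1.37 and -0.90 in all 35.

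Set against each other in the same library, Atoh1 and Hes1 separated the 3 groups. Per 100 counts of Hes1 there were 52.9 to 78.3 counts of Atoh1 in wild-type colon, with a median of 73.6. The Apc tumours had 16.5 to 35.0, with a median of 27.4, and the Apc/Tgif tumours 4.02 to 10.7, with a median of 6.88. No 2 groups overlapped in this ratio, which was formed with both genes' fold changes known and is given as a description.

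**Figure D4:**
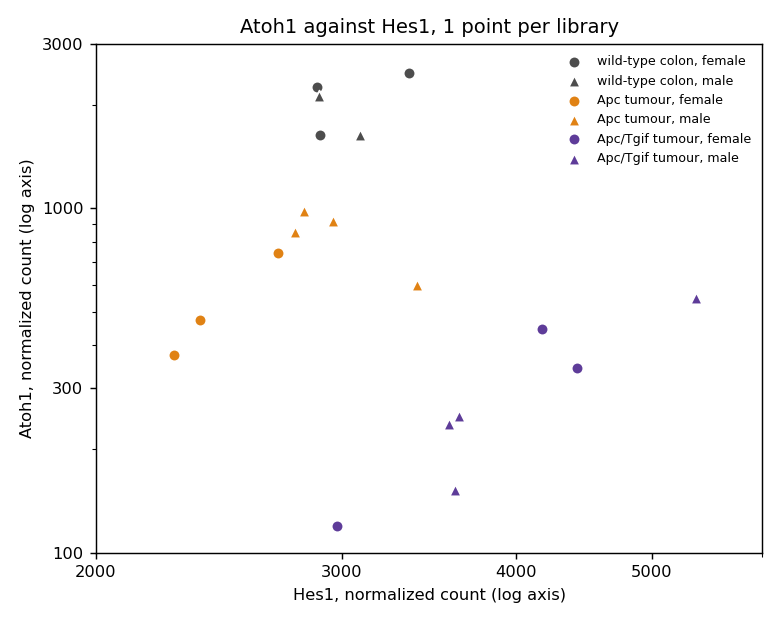
Normalized counts of Atoh1 against Hes1 (both log axes), 1 point per library, coloured by group and shaped by sex. The wild-type libraries lie highest on the Atoh1 axis, the Apc/Tgif tumours lie lowest relative to their Hes1, and among the 7 Apc/Tgif tumours the libraries with more Hes1 also had more Atoh1.

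Within the Apc/Tgif tumours Hes1 and Atoh1 were higher in the same libraries. Their log2 values had Pearson r = 0.915 (two-sided exact permutation p = 0.00397, adjusted p = 0.0476 over 12 tests, n = 7) and Spearman rho = 0.929 (exact permutation p = 0.00675, adjusted p = 0.0738). Without the 2 libraries farthest from the median of Atoh1, r was 0.782. They were replicate 5, the library rich in Rn45s, and replicate 2, which had the lowest mean correlation with its own group. Atoh1 and Gfi1 likewise had r = 0.886 (exact permutation p = 0.0107, adjusted p = 0.0476, n = 7) and rho = 0.893 (exact permutation p = 0.0123, adjusted p = 0.0738), with r = 0.803 without 2 libraries. In Apc tumours the same pairs had r of 0.582 (permutation adjusted p = 0.407) and 0.44 (permutation adjusted p = 0.534). Jag1 and Notch3 in Apc tumours had r = 0.916 (exact permutation p = 0.0119, adjusted p = 0.0476, n = 7) and rho = 0.75 (exact permutation p = 0.0663, adjusted p = 0.263). That relation rests on 2 libraries, since r without them was 0.209. These 3 of 12 Pearson values passed after adjustment and 0 of 12 Spearman values did, of which 2 were under 0.05 unadjusted by the permutation test. With equal library totals 0 of 12 Pearson values passed.

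The genes most like Atoh1 over the 14 tumours, with group means removed, were the mucin branching enzyme Gcnt3 (r = 0.896), the goblet cell lectin Zg16 (r = 0.891), Fam13a (r = 0.885), the goblet cell peptide Tff3 (r = 0.871) and the short-chain fatty acid receptor Ffar2 (r = 0.862). Atoh1 had r = 0.905 with the mean of 12 goblet cell products, Gfi1 had 0.708 and Hes1 had 0.702. The genes most like Hes1 were Mpi and Uap1 (r = 0.919 and 0.906), enzymes of sugar phosphate and sugar nucleotide metabolism, then Rasd1 (r = 0.897), Fam219b (r = 0.893) and Acap3 (r = 0.891). These values describe how the same libraries differ and share their library effects.

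The rest of the pathway is given list by list. Of all tested genes, 23.9% were higher and 25.2% lower in Apc tumours than in wild-type colon. In Apc/Tgif tumours these shares were 24.8% and 25.5%, and between the tumours 7.88% and 8.76%. They apply to every list count given above and below, and a count near its share is no result about that list. Of 14 glycosylation and processing genes, 4 were higher and 3 lower in Apc tumours than in wild-type colon, with a median log2 fold change of -0.09. Adam10, the protease of the first receptor cut, rose from 6344 ± 699.8 to 13816 ± 2297 (log2 fold change 1.12, limma adjusted p = 2.74e-06), and Furin, which matures the receptor, from 3108 ± 106 to 6644 ± 1133 (adjusted p = 8.82e-07). In Apc/Tgif tumours 4 were higher and 2 lower than in wild-type colon, with a median of 0.15.

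Between the tumours 3 of these 14 were higher in Apc/Tgif tumours and 0 lower, with a median of 0.12. The 3 were Aph1b, Rfng and Lfng. Aph1b, a gamma-secretase subunit, was 305 ± 54.1 in Apc and 614 ± 103 in Apc/Tgif tumours (log2 fold change 1.01, limma adjusted p = 0.000117), and its 2 tumour groups did not overlap. It had been 601 ± 98.2 in wild-type colon. Rfng, a Fringe glycosyltransferase that adds sugar to the receptor, was 785 ± 166 and 1256 ± 190.1 (log2 fold change 0.69, adjusted p = 0.000984). Lfng, another Fringe enzyme, was 636 ± 100.6 in wild-type colon, 1257 ± 379.8 in Apc and 1751 ± 293 in Apc/Tgif tumours (log2 fold change between the tumours 0.52, adjusted p = 0.0418).

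Of 12 genes of ligand and receptor trafficking and turnover, 3 were higher and 4 lower in Apc tumours, and 3 higher and 5 lower in Apc/Tgif tumours, than in wild-type colon. The medians were -0.02 and -0.14. Neurl1b, a ubiquitin ligase for Notch ligands, fell from 2282 ± 389 in wild-type colon to 519.8 ± 171 in Apc tumours (log2 fold change -2.24, limma adjusted p = 2.46e-07), while its paralogue Neurl1a rose from 201 ± 32.0 to 717 ± 234 (log2 fold change 1.76). Dtx1, a Deltex protein that binds the receptor, fell from 245 ± 79.2 to 29.9 ± 27.4 (log2 fold change -3.31, adjusted p = 5.64e-06). Numb, an inhibitor of the receptor, was 2873 ± 146 in wild-type colon and 1656 ± 175 in Apc/Tgif tumours (adjusted p = 1.55e-06). Dtx4, a further Deltex protein, was the 1 gene of this list that differed between the tumours, at 2165.9 ± 310.2 in Apc and 3179.5 ± 726 in Apc/Tgif tumours (log2 fold change 0.54, adjusted p = 0.0072).

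Of 7 genes of the nuclear complex, 1 was higher and 1 lower in Apc tumours, 4 were higher in Apc/Tgif tumours than in wild-type colon, and 0 passed between the tumours in limma, although 2 had an unadjusted p under 0.05. Rbpj, the DNA-binding partner of the cleaved receptor, was 2265 ± 412 in wild-type colon, 2547 ± 525 in Apc and 3067 ± 510 in Apc/Tgif tumours, and its rise over wild-type colon passed in the last (log2 fold change 0.47, adjusted p = 0.0127).

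The other target genes moved in both directions. Of 6 tested, 2 were higher and 2 lower in each tumour genotype than in wild-type colon, and 0 passed the limma test between the tumours, although 1, Hes5, had an unadjusted p under 0.05. Hey1, a Hes relative prominent in vessels, rose from 73.8 ± 12.8 to 273 ± 155 in Apc and 332 ± 132 in Apc/Tgif tumours (log2 fold changes 1.76 and 2.11, limma adjusted p = 0.000188 and 2.26e-05). Hey2, whose promoter window is printed above, was 58.8 ± 17.7 in wild-type colon and fell to 24.9 ± 10.3 and 17.7 ± 13.2 (log2 fold changes -1.17 and -1.75, adjusted p = 0.00863 and 0.000302). Nrarp, a feedback inhibitor of the receptor complex, fell from 1189.6 ± 258 to 657 ± 136 in Apc and 715 ± 204 in Apc/Tgif tumours (log2 fold changes -0.85 and -0.76). Olfm4, a Notch-dependent marker of small-intestinal crypt progenitors, was at 0 in 4 of 5 wild-type libraries. It was 13.0 ± 9.51 in Apc tumours, with a median of 10.55. In Apc/Tgif tumours it was 10.8 ± 19.1, with a median of 3.2 and a highest value of 53.7. Of the other receptors and ligands, Dll3, a ligand that inhibits signalling within its own cell, was 17.9 ± 5.14 in Apc and 4.88 ± 2.88 in Apc/Tgif tumours (adjusted p = 0.00373).

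Most secretory fate factors that passed the test were lower in tumours than in wild-type colon, and all that passed between the tumours were lower in Apc/Tgif tumours. Of 15 secretory fate factors tested, 7 fell and 3 rose in Apc tumours, and 10 fell and 3 rose in Apc/Tgif tumours, each against wild-type colon. The median log2 fold changes were -0.83 and -1.73. Between the tumours 5 were lower in Apc/Tgif tumours and 0 higher, with a median of -0.50. The goblet factor Creb3l1 went from 9564 ± 1006 in wild-type colon to 2878 ± 880.2 in Apc and 1549 ± 407 in Apc/Tgif tumours (log2 fold change between the tumours -0.86, limma adjusted p = 0.00384). Spdef, the goblet and Paneth maturation factor, was 1265 ± 149 in wild-type colon and 882 ± 504 in Apc tumours (adjusted p = 0.126), and fell to 298 ± 185 in Apc/Tgif tumours (log2 fold change between the tumours -1.58, adjusted p = 0.00506). Neurog3, the enteroendocrine master factor, was 63.8 ± 15.7, 14.5 ± 10.03 and 3.20 ± 2.92 in the 3 groups (log2 fold change between the tumours -1.86, adjusted p = 0.00722). The other genes of the 5 were Creb3l4 and Neurod1. The 3 that rose in both tumour genotypes were Sox9, Foxa1 and Foxa3, named here after their values were seen.

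Every goblet cell product that passed the test was lower, in each comparison. Of 12 tested, 7 were lower in Apc tumours and 10 in Apc/Tgif tumours than in wild-type colon, 9 were lower in Apc/Tgif than in Apc tumours, and 0 were higher in any comparison. The median log2 fold changes were -1.46, -3.17 and -1.71. Muc2, the main mucin of the colon, was 80656 ± 15195 in wild-type colon and 65245 ± 49861 in Apc tumours (log2 fold change -0.76, limma adjusted p = 0.209), and 12446 ± 8969 in Apc/Tgif tumours (log2 fold change between the tumours -2.26, adjusted p = 0.00175). Zg16, a mucus lectin, ran from 7399 to 39881 in Apc and from 282 to 6619.7 in Apc/Tgif tumours, with no overlap (log2 fold change -3.42, adjusted p = 0.000274). Fcgbp, which cross-links the mucus, went from 27545 ± 13438 to 5718 ± 3244 between the tumours (adjusted p = 0.000548).

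Of 10 enteroendocrine products, 7 were lower and 1, Nts, higher in Apc tumours than in wild-type colon, and 8 lower and 1 higher in Apc/Tgif tumours. Between the tumours 4 were lower in Apc/Tgif than in Apc tumours, with a median of -1.18. Gcg, the proglucagon gene of L cells, was 1087 ± 172, 122 ± 77.8 and 26.1 ± 17.6 in the 3 groups (log2 fold change between the tumours -2.24, limma adjusted p = 0.00177). Of 7 tuft cell genes tested, 4 were lower in each tumour genotype than in wild-type colon and 1, Avil, higher, and 2, Gnat3 and Rgs13, were lower in Apc/Tgif than in Apc tumours.

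Most Paneth cell products rose in tumours. Of 8 tested, 7 were higher and 0 lower in Apc tumours, and 7 higher and 1 lower in Apc/Tgif tumours, than in wild-type colon, with medians of 6.50 and 5.70. The exception was the angiogenin Ang4 (log2 fold change -0.16, limma adjusted p = 0.836, in Apc tumours and -2.72, adjusted p = 0.000709, in Apc/Tgif tumours). Between the tumours 0 were higher and 1, again Ang4, was lower in Apc/Tgif tumours (log2 fold change -2.56, limma adjusted p = 0.0026). Mmp7, the protease that activates defensins, was 6.18 ± 2.32 in wild-type colon, 22891 ± 13343 in Apc and 30360.4 ± 26004 in Apc/Tgif tumours.

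Absorptive products belong to the fate that Notch favours, and those that passed the test were lower. Of 9 tested, 8 were lower in each tumour genotype than in wild-type colon, with medians of -3.74 and -5.66. Between the tumours 6 were lower in Apc/Tgif tumours and 0 higher, with a median of -2.82. Slc26a3, the chloride exchanger of surface colonocytes, was 2219.8 ± 1333 in Apc and 175 ± 151 in Apc/Tgif tumours (log2 fold change -3.64, limma adjusted p = 0.000196). None of the secretory fate, goblet, Paneth or absorptive genes was higher in Apc/Tgif than in Apc tumours at an unadjusted p under 0.05 either. Of 9 epithelial markers, 0 differed between the tumours past the threshold in limma, and 0 had an unadjusted p under 0.05.

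**Figure D5:**
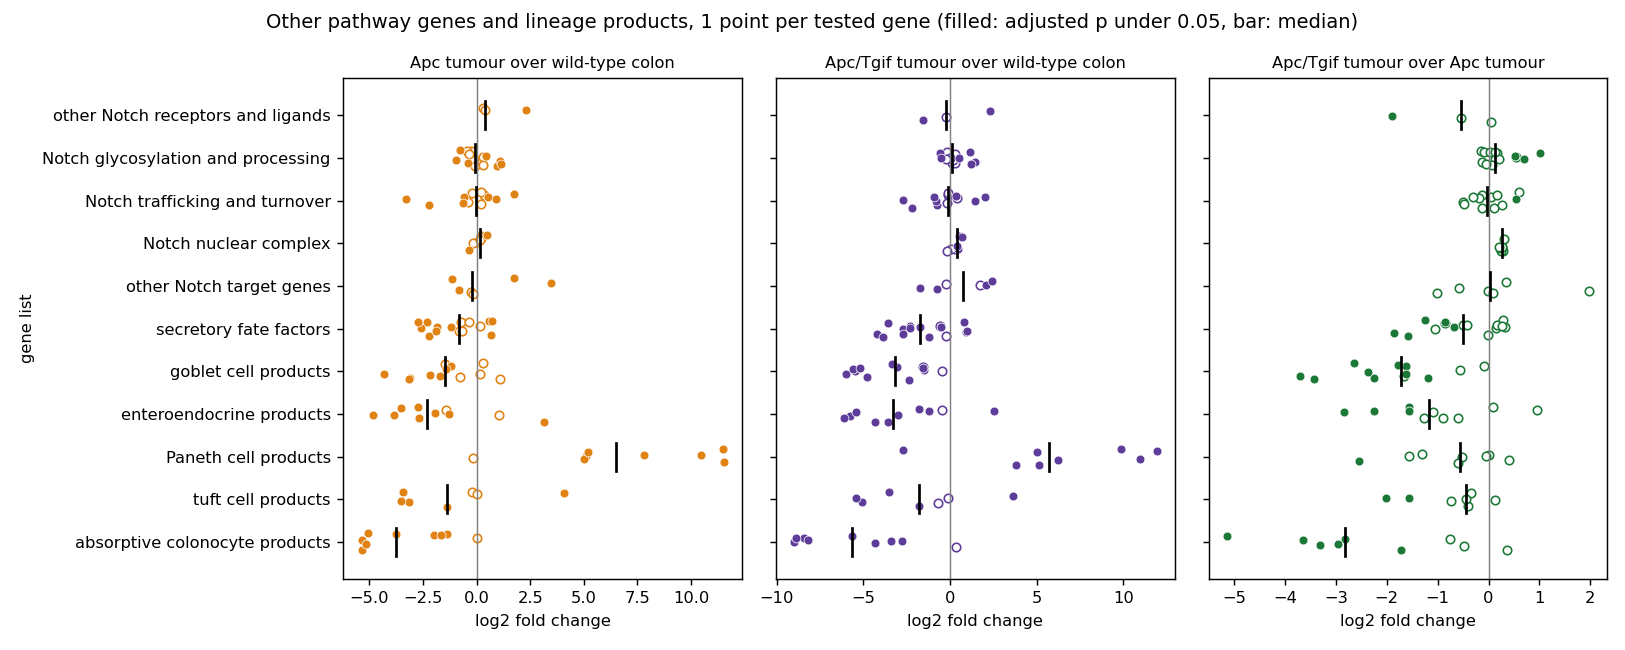
Log2 fold changes (x axes, with a separate scale in each panel) of the other pathway genes and of lineage products, 1 point per tested gene, in the 3 comparisons. Filled points passed an adjusted p of 0.05 and bars mark the median of a list, which lies at -1.71 for goblet and -2.82 for absorptive products between the tumours.

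Divided by exon length, in counts per kb, Hes1 had the highest level of the 10 genes in every group, with medians of 1970, 1890 and 2480 in wild-type colon, Apc and Apc/Tgif tumours. Atoh1 came next in wild-type colon at 1000 counts per kb and in Apc tumours at 349, and was behind Jag2 in Apc/Tgif tumours at 118. In wild-type colon Dll1 followed at 211, then Notch1 at 178, Dll4 at 141, Notch2 at 136, Jag1 at 128, Gfi1 at 109, Notch3 at 52.0 and Jag2 at 31.5. From Dll1 downwards each neighbour in that order overlapped the next in its range. In Apc tumours Notch1 at 317, Dll4 at 273, Notch2 at 162, Jag1 at 129 and Jag2 at 122 came after Atoh1, and Notch3, Dll1 and Gfi1 were last at 56.3, 54.3 and 52.8. There the steps from Hes1 to Atoh1 and from Dll4 to Notch2 were free of overlap. In Apc/Tgif tumours Notch1 at 465 and Dll4 at 414 came after Hes1, Notch2 was at 244 and Jag2 at 190, and Jag1, Dll1, Notch3 and Gfi1 followed Atoh1 at 110, 71.3, 52.2 and 27.3. There the steps from Hes1 to Notch1 and from Dll4 to Notch2 were free of overlap.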

How the data were processed

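Poly-A RNA-seq libraries of 19 mouse colon and colon tumour samples were deposited by the authors as 1 table of normalized counts, a coverage-like signal in which reads per gene are divided by a size factor per library. The submitters' processing notes name Salmon, DESeq2, GRCm38 and mm10. Their versions, and the gene annotation, are in none of the sources used here. All columns were mapped to samples by title, and 0 were left unmapped. Low values were whole multiples of a step, within 0.1 of it, for 81.9% to 84.6% of values per library. Whole reads were therefore not recovered, no count test was run, and the number of reads behind a value is unknown.

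Values were analysed as log2(normalized count + 1) with limma 3.58.1 in R 4.3.3 (trend and robust variances) in 1 fit of all 19 libraries with group and sex, for the 18445 of 32694 genes with at least 10 normalized counts in at least 5 libraries. P-values are two-sided with Benjamini-Hochberg adjustment over all tested genes, and the threshold was 0.05. A second fit with 1 mean per group and sex gave the sex differences. Fold changes lie on the log2(normalized count + 1) scale, which understates low genes. Correlations used all 5040 pairings of 7 libraries. Exon lengths and gene positions are from GENCODE M21 on GRCm38, and promoter windows from RefSeq. The scripts were tested on simulated data.

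The members and the 22 gene lists were chosen with earlier results of these data known. Named genes were the 10 members, up to 3 genes of a list with the smallest p in a comparison, the genes Rbpj, Nrarp, Hey1, Spdef, Neurog3, Muc2 and Olfm4, and the 5 genes with the highest r with Atoh1, Hes1 and Notch3 among genes with a mean of at least 100. Alternatives covered the pseudocount, filters, scaling, variance settings, covariates, each sex alone, and each library left out. The values of 1 gene that this rule names are not reported here.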

Additional observations from a re-analysis of the deposited data

Results flagged for a closer look

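Among 30 combinations of a member and a group, 2 had a library far from the others, where chance gives about 1 in 20. Both were replicate 2 of the Apc/Tgif tumours. Notch2 was 1966 there, beside 2399 in the next library, a gap of 0.586 of the group's range. Notch3 was 910.48 there, beside 606 in the next, a gap of 0.581 of the range. Without this library the log2 fold change between the tumours was 0.52 for Notch2 (limma adjusted p = 0.00598) and -0.23 for Notch3 (adjusted p = 0.530). The same library had the lowest Hes1, Atoh1 and Gfi1 of its group and the highest summed endothelial markers, 10757, and its mean correlation with its group was 0.947.

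Of 30 tests of a sex difference, 1 passed. It was 1 of 10 members in the comparison of the tumours, where 23.6% of all tested genes were called. The change of Jag2 between the tumours was 1.62 lower in males on the log2 scale (value -1.62, SE 0.311, limma adjusted p = 0.00225), with 3 of 3 Apc/Tgif females above all 4 males. The test of the difference itself placed this result here.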

How the results depend on the processing

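Each member's fold change was refitted in 35 alternative settings, of which 19 left out 1 library. Calls of Dll1, Dll4, Jag2, Notch1 and Atoh1 over wild-type colon were kept in all 35 in both tumour genotypes. With equal library totals the median of all genes moved to 0.19, 0.15 and -0.06 on the log2 scale in the 3 comparisons. The split of higher and lower calls became 6160 and 3417 (64.3% higher) in place of 4415 and 4639 (48.8%), then 5810 and 3843 (60.2%) in place of 4576 and 4708 (49.3%), then 1080 and 1849 (36.9%) in place of 1453 and 1615 (47.4%). Members called between the tumours numbered 3 in males alone and 6 over all. Members with a sex difference numbered 6 with quality weights, and from 1 to 2 with 1 library left out. For the counts in males alone, with quality weights and with 1 library left out, the share of all tested genes is not given. Those counts are therefore no result about the members. Correlations past the threshold numbered 0 by Spearman rho and 0 with equal library totals. None of the fold changes that changed sign was called. They were Hes1 in Apc tumours with equal totals (0.0394), Jag1 in Apc tumours with quantile normalization (-0.0311), in females (-0.24), with the endothelial score (-0.0171) and over libraries left out (-0.00756 to 0.149), and Notch3 in Apc tumours in females (-0.20) and with the endothelial score (-0.0688). Between the tumours they were Notch3 in females (0.43), with the endothelial score (0.27) and over libraries left out (-0.226 to 0.0607), and in males Dll1 (-0.16) and Jag2 (-0.0262). Correlations that changed sign were Notch1 with Hes1 in Apc/Tgif tumours by rho (0.0357), with equal totals (0.0699) and without 2 libraries (0.435). Without 2 libraries, Atoh1 with Dll1 (-0.616) and with Hes1 (-0.653) in Apc tumours, and Atoh1 with Dll1 (0.145) and Jag1 with Notch3 (0.146) in Apc/Tgif tumours, did so too. The cause was not tested. No paired analysis was possible because replicate numbers follow accession order and pair no samples.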
